A study of Mus musculus with 6 samples.

Results

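The lysyl oxidase family was followed by its 5 genes, *Lox*, *Loxl1*, *Loxl2*, *Loxl3* and *Loxl4*, which were taken by symbol from the 23995 genes of the deposited expression table, and all 5 were listed. Expression was measured by RNA sequencing of heart RNA in 6 libraries, 3 from wild-type (WT) mice and 3 from mice with an inducible, cardiomyocyte-specific knockout of *Ltbp4* (LTBP4-CKO). *Ltbp4* encodes latent TGF-beta binding protein 4, an extracellular protein of microfibrils and elastic fibres. Both genotypes had undergone transverse aortic constriction (TAC), a narrowing of the aorta that loads the left ventricle with pressure, at an age of 10 to 12 weeks. No unoperated heart was analysed here, so every difference below is between genotypes after TAC. The labels name no Cre transgene or inducing agent, do not give the time between surgery and harvest or the part of the heart taken, and call the WT libraries flox without stating their alleles. The question was how loss of cardiomyocyte *Ltbp4* alters the pressure-loaded heart.

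Lysyl oxidases are secreted, copper-dependent enzymes. They oxidise lysine side chains in collagen and elastin, and the aldehydes formed then join into the covalent cross-links that stiffen collagen fibres and make elastin insoluble. In the heart they are made mainly by fibroblasts and vascular cells, and collagen cross-linking is a known part of fibrosis under pressure load. *Lox* and *Loxl1* encode proenzymes with a propeptide that is cut off outside the cell, whereas the proteins of *Loxl2*, *Loxl3* and *Loxl4* carry scavenger receptor cysteine-rich domains in front of the catalytic domain. In mice, loss of *Lox* or *Loxl1* impairs elastic fibres, and loss of *Loxl3* disturbs the palate and skeleton.

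The 5 genes lie on separate chromosomes, and all are annotated as protein coding in GENCODE M21 (mm10, positions as in the table, counted from 1). *Loxl1* is on the minus strand of chromosome 9, from 58287723 to 58313212. *Loxl2* is on the plus strand of chromosome 14, from 69609476 to 69695834. *Loxl3* is on the plus strand of chromosome 6, from 83034224 to 83054571, and its end in the table lies 2009 bases past the annotated one. *Loxl4* is on the minus strand of chromosome 19, from 42592279 to 42612806.

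To show how far the members differ where they are most alike, the 60-base stretch of their coding sequences with the most shared bases is given for 4 of them. The stretch lies in the conserved C-terminal catalytic domain, within a single exon of each gene, and capitals mark the 40 bases that are the same in all 4 sequences. The sequences are from GENCODE M21 transcripts, 5′ to 3′ on the coding strand.
*Loxl1* (exon 5, chr9:58292569-58292628, minus strand): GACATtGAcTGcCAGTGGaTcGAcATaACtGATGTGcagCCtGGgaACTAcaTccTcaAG
*Loxl2* (exon 12, chr14:69690211-69690270, plus strand): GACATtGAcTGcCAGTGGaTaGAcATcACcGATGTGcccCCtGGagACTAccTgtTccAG
*Loxl3* (exon 12, chr6:83050385-83050444, plus strand): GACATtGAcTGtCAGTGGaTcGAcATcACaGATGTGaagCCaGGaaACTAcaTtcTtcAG
*Loxl4* (exon 13, chr19:42597945-42598004, minus strand): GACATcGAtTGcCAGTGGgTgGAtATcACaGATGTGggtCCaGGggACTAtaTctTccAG
Even here, *Loxl3* shared 51 of 60 bases with *Loxl1*, 48 with *Loxl2* and 45 with *Loxl4*. Over all pairs of the 5 coding sequences, the longest identical run was 32 bases, between *Lox* and *Loxl1*, and the longest that involved *Loxl3* was 26 bases, with *Loxl2*. Aligned coding bases were 60.4% to 61.9% identical among *Loxl2*, *Loxl3* and *Loxl4*, and 60.7% identical between *Lox* and *Loxl1*. The other pairs were 43.6% to 46.0% identical.

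Values are FPKM (fragments per kilobase of transcript, scaled to the mapped fragments of the library) as the authors deposited them, and they allow levels to be compared between genes. The depth recovered from low values ran from about 3700000 fragments (WT library 2) to about 14100000 (LTBP4-CKO library 1). WT libraries 1 and 3, and LTBP4-CKO libraries 2 and 3, differed by little more than the sampling noise of their reads. By a median-based estimate, read differences within these pairs had a variance 1.22 to 2.38 times the one counting alone gives. In the remaining 13 pairs the ratio was 2.03 to 402 over all read levels, and 25.4 to 402 for genes with over 1000 reads. Pearson's r of log2(FPKM + 1) over tested genes was 0.992 and 0.993 in the close pairs and 0.894 to 0.944 in the others. WT library 2 had r = 0.944 with LTBP4-CKO libraries 2 and 3, and 0.925 and 0.926 with WT libraries 1 and 3. Each close pair was therefore averaged and counted as 1 sample, which left 2 WT and 2 LTBP4-CKO samples. WT library 3 and LTBP4-CKO library 3 belong to a second set of sample records and the other libraries to the first (the record set). Each close pair thus joins a library of the first set to one of the second. No label says that samples came from separate animals, so p-values rest on the spread between these samples only. Markers of atrial cardiomyocytes, 6 genes, summed to 37550, 1587 and 37640 FPKM in WT libraries 1 to 3 and to 13930, 289.9 and 279 in LTBP4-CKO libraries 1 to 3. LTBP4-CKO library 1 was the only one with *Xist* (41.9 FPKM, under 0.1 elsewhere) and without the Y-linked *Eif2s3y* (0 FPKM, 35.1 to 54.0 elsewhere). *Ltbp4* itself was at 368, 248 and 357 FPKM in WT libraries 1 to 3 and at 139, 199 and 195 in LTBP4-CKO libraries 1 to 3, lower in each of the latter. That difference missed the threshold (limma, Benjamini-Hochberg adjusted p = 0.999).

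In the hearts with the *Ltbp4* knockout, *Loxl3* and *Loxl1* transcripts were lower in every library than in any wild-type library, *Lox* was high in only 2 of the wild-type libraries, and *Loxl2* showed no difference in mean. *Loxl3* stood 5.54 times higher in the mean of the wild-type samples, and *Loxl1* 2.27 times. *Loxl4* was near the lower end of what could be measured. None of these differences passed the test across all genes: 0 of 5 members were called, beside 0.00801% of the 12485 genes tested (1 gene, *Esr1*). *Esr1*, the estrogen receptor alpha gene, was at 0, 0.202 and 0 FPKM in WT libraries 1 to 3. In LTBP4-CKO libraries 1 to 3 it was at 1425, 781 and 758. The source of these reads was not tested. Every difference between genotypes is thus also one between libraries with and without high *Esr1*. Every LTBP4-CKO library lay below every WT library for 3 of 5 members (*Loxl1*, *Loxl3* and *Loxl4*), beside 11.5% of all tested genes, and 0 of 5 had every LTBP4-CKO library above, beside 10.4%. An unadjusted p under 0.05 was found for 2 of 5 members, beside 3.00% of all tested genes. In bulk heart RNA, fewer cells of a type and less RNA per cell cannot be told apart. All 5 entered the test, but *Loxl4* did so only through its WT values, with 0 of 3 LTBP4-CKO libraries at the required 1 FPKM. Such a filter favours its separation, so nothing is read from *Loxl4* in that count. A fold change is on the log2(FPKM + 1) scale and understates the change of low genes.

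*Loxl3* encodes a member that in mice is needed for collagen cross-links of the palate and spine. Its FPKM was 77.5, 28.5 and 77.1 in WT libraries 1 to 3 and 9.93, 8.83 and 9.56 in LTBP4-CKO libraries 1 to 3. The 3 LTBP4-CKO libraries lay close together at the bottom, and WT library 2 lay between them and the close pair of WT libraries, 3.10 times above the mean of LTBP4-CKO libraries 2 and 3. Over samples, *Loxl3* was at 52.9 ± 34.5 FPKM in WT and 9.56 ± 0.521 in LTBP4-CKO (SD, n = 2 each). The log2 difference was −2.19 (SE 0.51, 95% interval −3.42 to −0.95). It had an unadjusted p of 0.0044 in limma and missed the threshold after adjustment (limma, Benjamini-Hochberg adjusted p = 0.999). Without WT libraries 1 and 3 the estimate was −1.48, and without LTBP4-CKO library 1 it was −2.24. The kit is not stated to keep strand, and exons of *Loxl3* overlap those of *Htra2*, a mitochondrial protease gene on the other strand, by 535 bases in GENCODE M21, so reads there cannot be told apart. The longer *Loxl3* span of the table takes in 2244 exon bases of *Htra2* and the first 51 of *Aup1*, the next gene on the same strand, and which of these bases the authors' *Loxl3* model counted is not known. *Htra2* overlapped between genotypes, at 29.6, 24.5 and 33.05 FPKM in WT and 26.8, 18.6 and 25.8 in LTBP4-CKO.

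*Loxl1* encodes the member that binds fibulin-5 and is needed to renew elastic fibres in mice. Its FPKM was 109, 63.0 and 111 in WT libraries 1 to 3 and 40.2, 35.9 and 35.9 in LTBP4-CKO libraries 1 to 3. All LTBP4-CKO libraries lay below all WT libraries, with WT library 2 again between the groups' extremes. Over samples, *Loxl1* was at 86.4 ± 33.1 FPKM in WT and 38.0 ± 3.07 in LTBP4-CKO (SD, n = 2 each), a log2 difference of −1.11 (SE 0.43, 95% interval −2.15 to −0.08). The unadjusted p was 0.0389, and the adjusted value missed the threshold (limma, Benjamini-Hochberg adjusted p = 0.999). Without WT libraries 1 and 3 the estimate was −0.72. *Loxl1* was the most abundant member in each of the 6 libraries, and it made up 36.2% to 36.5% of the summed family FPKM in WT libraries 1 and 3, 57.9% in WT library 2 and 49.8% to 61.9% in the LTBP4-CKO libraries.

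*Lox* encodes lysyl oxidase itself, the founding member, which cross-links fibrillar collagen and elastin. It lies on the minus strand of chromosome 18, from 52516060 to 52529867 (mm10). Its FPKM was 101, 9.61 and 103 in WT libraries 1 to 3 and 17.7, 6.48 and 6.81 in LTBP4-CKO libraries 1 to 3. The genotypes overlapped, because WT library 2 lay below LTBP4-CKO library 1 while WT libraries 1 and 3 were about 10.6 times higher than WT library 2. The WT libraries with the high *Lox* values were those with the high atrial marker sums. Every other member was also higher in WT libraries 1 and 3 than in WT library 2. In LTBP4-CKO the highest *Lox* and the highest atrial sum were both in library 1, but that sum (13930 FPKM) was almost all *Nppa* (13882). Among LTBP4-CKO libraries, library 1 was the lowest for *Sln* (0.684), *Myl4* (8.11) and *Myl7* (2.82). It was the highest for *Dkk3* (17.5) and *Stard10* (21.1). The part of atrial tissue in the values of *Lox* or of the other members was not tested. Over samples, *Lox* was at 55.6 ± 65.1 FPKM in WT and 12.2 ± 7.79 in LTBP4-CKO (SD, n = 2 each). The log2 difference was −1.47 (SE 1.03, 95% interval −3.93 to 1.00) and missed the threshold (limma, Benjamini-Hochberg adjusted p = 0.999). Without WT libraries 1 and 3 it turned to 0.17, and without WT library 2 it was −3.10 (limma, Benjamini-Hochberg adjusted p = 0.296; lowest and highest among the alternatives 0.208 and 1). The *Lox* difference between genotypes thus had a sign that depended on which WT sample was used.

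*Loxl2* encodes a member that acts on type IV collagen of basement membranes and on fibrillar collagen. Its FPKM was 11.7, 6.62 and 11.8 in WT libraries 1 to 3 and 12.2, 6.51 and 6.32 in LTBP4-CKO libraries 1 to 3. Each genotype held a sample near 12 and a sample near 6.5. The samples' means were 9.20 ± 3.64 FPKM in WT and 9.29 ± 4.06 in LTBP4-CKO (SD, n = 2 each), a log2 difference of 0.00 (SE 0.45, 95% interval −1.09 to 1.09; limma, Benjamini-Hochberg adjusted p = 0.999). The interval holds differences of up to about 1 on the log2 scale in either direction. The sign of the estimate changed with the samples kept, from −0.41 without LTBP4-CKO library 1 to 0.42 without LTBP4-CKO libraries 2 and 3.

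*Loxl4* encodes a member of the *Loxl2* type and was the lowest of the family in every library. Its FPKM was 1.59, 1.11 and 1.92 in WT libraries 1 to 3 and 0.834, 0.295 and 0.436 in LTBP4-CKO libraries 1 to 3. By the recovered depth these values rest on 46, 21 and 58 reads in WT and on 60, 9 and 15 reads in LTBP4-CKO, at unequal depth. LTBP4-CKO libraries lay below WT libraries in FPKM, although LTBP4-CKO library 1, the deepest, held the most reads. Over samples, *Loxl4* was at 1.43 ± 0.459 FPKM in WT and 0.5996 ± 0.331 in LTBP4-CKO (SD, n = 2 each). The log2 difference was −0.61 (SE 0.43, 95% interval −1.64 to 0.42) and missed the threshold (limma, Benjamini-Hochberg adjusted p = 0.999). It was −1.19 with a pseudocount of 0.1 in place of 1, since the values lie near the pseudocount. The span of *Loxl4* in the table also takes in 65 exon bases of *R3hcc1l* on the other strand.

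**Figure D1:**
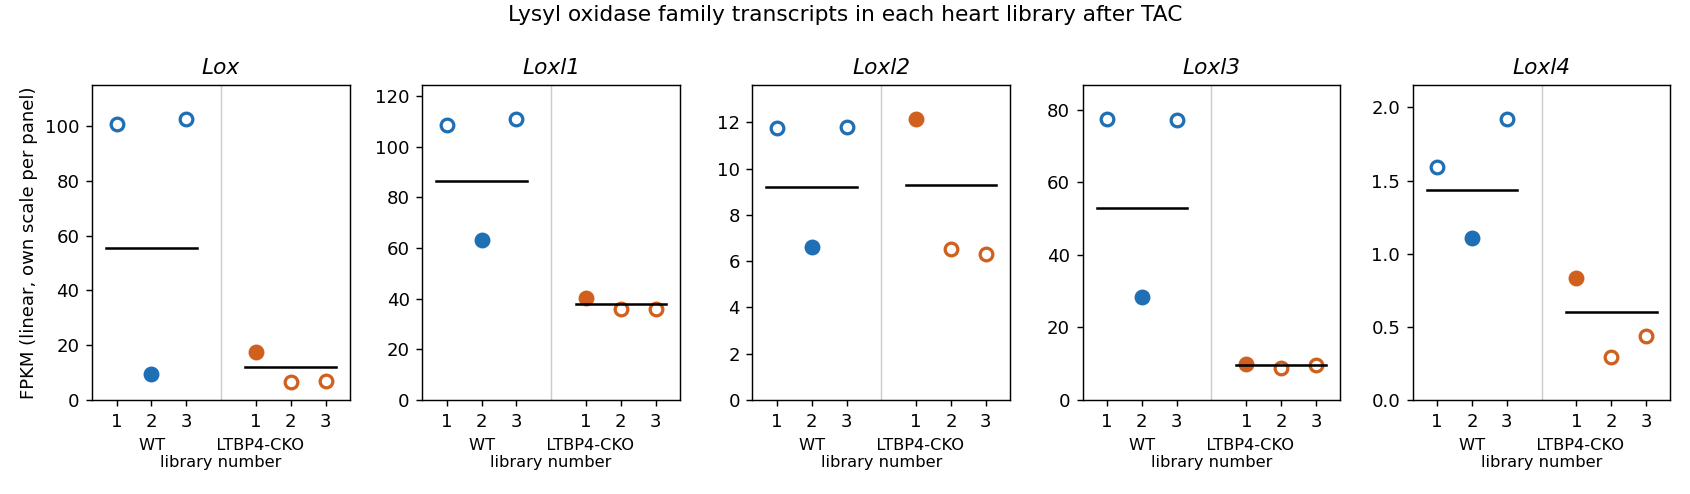
FPKM of each lysyl oxidase gene (vertical axis, linear, own scale per panel) in the 3 WT (blue) and 3 LTBP4-CKO (orange) libraries (horizontal axis); open circles mark the close pairs that were averaged, filled circles the other samples, and black lines the mean of the 2 samples per genotype. *Loxl3* sits between 8.83 and 9.93 in all LTBP4-CKO libraries and at or above 28.5 in WT, while *Lox* in WT library 2 (9.61) lies among the LTBP4-CKO values.

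Each member was also tested alone by an exact two-sided permutation test on log2(FPKM + 1). Over the 4 samples the smallest possible exact p is 0.333, so this design cannot reach the 0.05 threshold. *Loxl1* and *Loxl3* had that exact p (0.555 adjusted over the 5 members), and so did *Loxl4*, from which nothing is read because of the filter. *Lox* gave an exact p of 0.667 and *Loxl2* of 1.0. With the 6 libraries counted as separate, which the close pairs are not, the smallest possible exact p is 0.1, and it was found for *Loxl1* and *Loxl3* (0.167 adjusted over the 5 members). With the 6 libraries taken as separate samples, *Loxl3* had an estimate of −2.44 and also missed the threshold (limma, Benjamini-Hochberg adjusted p = 0.127; lowest and highest among the alternatives 0.127 and 1).

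**Figure D2:**
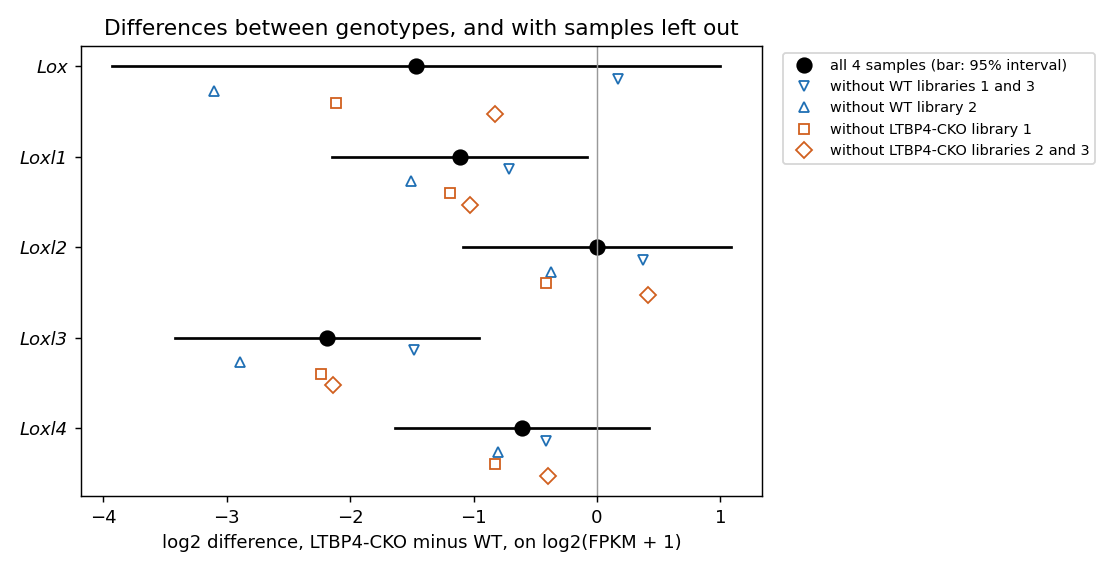
Log2 difference between LTBP4-CKO and WT (horizontal axis, on log2(FPKM + 1)) for each member, with black points and bars for the estimate of the 4 samples and its 95% interval, and open symbols for estimates with a sample left out. The *Loxl3* estimates run from −2.89 to −1.48 and the *Loxl1* estimates from −1.51 to −0.72, while *Lox* runs from −3.10 to 0.17.

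The order of the levels within the family differed between libraries. *Loxl1* came first and *Loxl4* last in each library. *Lox* came next after *Loxl1* in WT libraries 1 and 3 and in LTBP4-CKO library 1, whereas *Loxl3* did so in WT library 2 and in LTBP4-CKO libraries 2 and 3. *Loxl2* was below *Loxl3* in every library but LTBP4-CKO library 1. In WT, *Loxl3* held 25.3% to 26.2% of the summed family FPKM in all 3 libraries, against 12.3% to 16.2% in LTBP4-CKO, and *Loxl2* held 3.87% to 6.08% against 10.7% to 15.1%. *Lox* held 8.83% to 33.7% in WT and 11.2% to 21.9% in LTBP4-CKO, and these ranges overlapped. Over samples, the ranges of mean ± SD overlapped between *Loxl1*, *Lox* and *Loxl3* in WT and between *Lox*, *Loxl3* and *Loxl2* in LTBP4-CKO. Those ranges leave out that the members were measured in the same libraries, where *Loxl1* came first each time. The order of *Lox* and *Loxl3* in WT, and of *Lox*, *Loxl3* and *Loxl2* in LTBP4-CKO, changed between libraries and is not settled. No test was made of the order.

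The members were set against 4 references, which gave 20 ratios. As a share of the summed FPKM of *Col1a1*, *Col1a2* and *Col3a1*, which encode the chains of collagen I and III, *Loxl3* stood at 9.36%, 6.80% and 9.51% in WT libraries 1 to 3 and at 3.86%, 4.21% and 4.38% in LTBP4-CKO libraries 1 to 3. *Loxl1* stayed between 13.1% and 15.0% in WT and between 15.6% and 17.1% in LTBP4-CKO. *Loxl2* stood at 1.42%, 1.58% and 1.45% in WT and at 4.73%, 3.11% and 2.90% in LTBP4-CKO. The collagen sum itself was 828, 419 and 811 FPKM in WT libraries 1 to 3 and 257, 210 and 218 in LTBP4-CKO libraries 1 to 3. A gene of unchanged FPKM rises on such a reference. Relative to collagen, *Loxl3* was thus lower and *Loxl2* and *Loxl1* higher in every LTBP4-CKO library, while *Lox* and *Loxl4* overlapped. On the log2 scale over samples these ratio differences were −0.98 for *Loxl3*, 0.19 for *Loxl1* and 1.32 for *Loxl2*. Over the 4 samples the exact permutation p of each was 0.333, the smallest possible, and 0.832 when adjusted over the 20 ratios. With the 6 libraries counted as separate it was 0.1, also the smallest possible, and 0.25 adjusted.

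**Figure D3:**
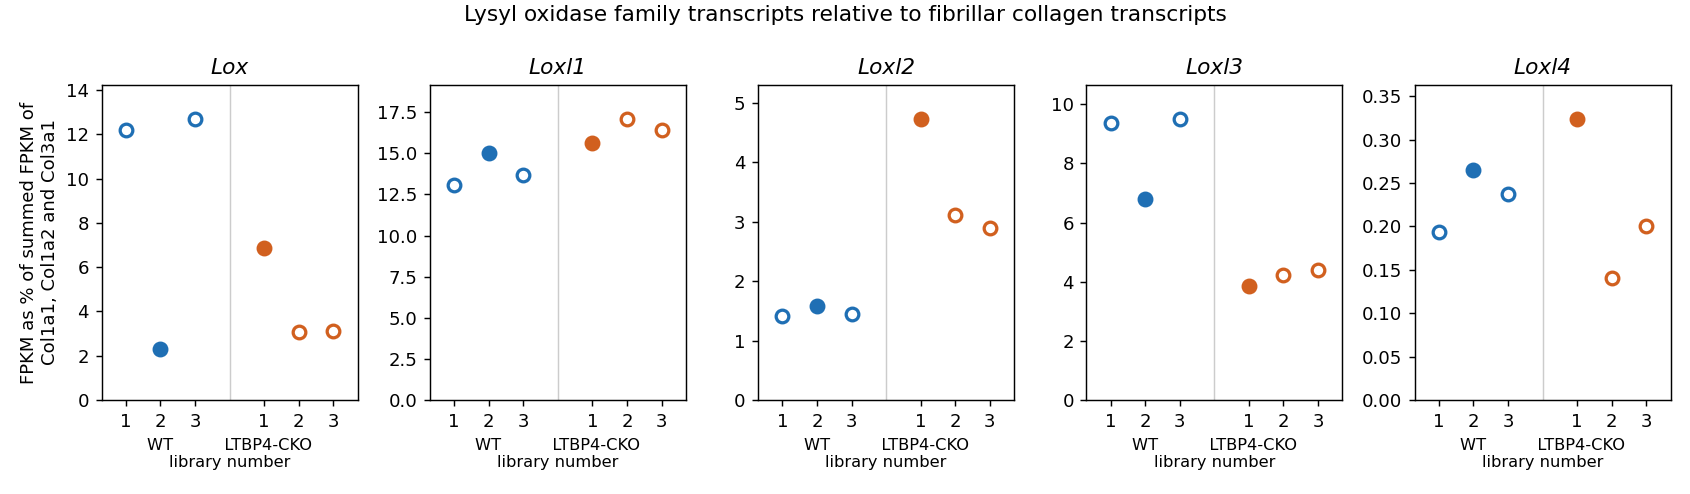
FPKM of each member as a percentage of the summed FPKM of *Col1a1*, *Col1a2* and *Col3a1* (vertical axis, linear, own scale per panel) by library (horizontal axis), with blue for WT, orange for LTBP4-CKO and open circles for the close pairs. *Loxl3* lies at or above 6.80% in WT and at or below 4.38% in LTBP4-CKO, and *Loxl2* at or below 1.58% in WT and at or above 2.90% in LTBP4-CKO.

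The second reference was the summed FPKM of 10 fibroblast markers, which was 5426, 2386 and 5384 in WT libraries 1 to 3 and 3710, 1080 and 1088 in LTBP4-CKO libraries 1 to 3. The sum overlapped between genotypes. As a share of these markers, *Loxl3* was 1.43%, 1.20% and 1.43% in WT and 0.268%, 0.817% and 0.878% in LTBP4-CKO, without overlap (exact permutation p = 0.333 over the 4 samples, 0.832 adjusted over the 20 ratios). *Loxl2* was higher in each LTBP4-CKO library on this reference too, at 0.216% to 0.277% in WT and 0.328% to 0.603% in LTBP4-CKO, with the same exact p. *Loxl1* overlapped, at 2.00% to 2.64% in WT and 1.08% to 3.32% in LTBP4-CKO, as did *Lox* and *Loxl4*.

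Against elastin (*Eln*), *Loxl3* was at 15.2% to 16.1% in WT and 7.37% to 12.9% in LTBP4-CKO, and *Loxl2* at 2.39% to 3.52% in WT and 5.36% to 15.8% in LTBP4-CKO, both without overlap. *Loxl1* overlapped on this reference, at 22.5%, 33.5% and 22.5% in WT and 52.4%, 30.0% and 30.4% in LTBP4-CKO, and so did *Lox* and *Loxl4*. Against the summed FPKM of 9 smooth muscle and pericyte markers, *Loxl2* overlapped, at 2.14%, 0.62% and 2.18% in WT and 3.20%, 0.67% and 0.67% in LTBP4-CKO. On that reference *Loxl3* was at 14.1%, 2.67% and 14.3% in WT and 2.62%, 0.908% and 1.01% in LTBP4-CKO, where WT library 2 and LTBP4-CKO library 1 nearly met, and *Lox*, *Loxl1* and *Loxl4* overlapped. The ratios without overlap again had an exact permutation p of 0.333 over the 4 samples (0.832 adjusted over the 20 ratios). *Loxl3* was thus lower in every LTBP4-CKO library on all 4 references, and *Loxl2* higher on 3 of 4. The ratios of a gene reuse the same FPKM values, so they are not separate results. *Loxl3* FPKM was already lower in every LTBP4-CKO library without a reference. *Loxl2* itself had a log2 difference of 0.00, while the collagen sum and *Eln* were lower in every LTBP4-CKO library. Its higher ratios to them thus do not show a rise of *Loxl2*. The share of all tested genes without overlap on each reference was not counted.

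Among genes for maturation and recruitment of lysyl oxidases, 8 of 9 tested members had lower estimates in LTBP4-CKO and 0 passed, with a median log2 difference of −0.89 beside 0.04 over all tested genes, of which 45.8% had lower estimates. Without WT library 2 that median was −1.41. *Fmod* encodes fibromodulin, a collagen-binding proteoglycan that also binds lysyl oxidase, and was at 98.5, 39.4 and 97.3 FPKM in WT and 8.92, 4.18 and 3.94 in LTBP4-CKO (−3.16, SE 0.56). As for *Loxl3*, WT library 2 lay between the other WT libraries and the LTBP4-CKO libraries. *Pcolce*, the procollagen C-proteinase enhancer gene, was at 292, 214 and 315 FPKM in WT and 122, 136 and 141 in LTBP4-CKO (−0.97, SE 0.46). *Postn*, the gene of periostin, which brings BMP1 to the matrix, had an estimate of −1.10 (SE 0.55), and the procollagen N-proteinase gene *Adamts2* one of −1.04 (SE 0.42). *Bmp1* encodes the main protease that frees lysyl oxidase from its propeptide, and it was at 94.1, 135 and 100 FPKM in WT and 69.8, 90.5 and 92.6 in LTBP4-CKO (−0.52, SE 0.43). Fibronectin (*Fn1*, −0.89) overlapped between genotypes, and the related protease gene *Tll1* was below the filter.

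Among elastic fibre genes, 12 of 13 tested members had lower estimates and 0 passed, with a median of −0.86, or −0.46 without WT libraries 1 and 3 and −1.38 without WT library 2. Elastin (*Eln*), the substrate of *Lox* and *Loxl1*, was at 482, 188 and 493 FPKM in WT and 76.8, 120 and 118 in LTBP4-CKO (−1.65, SE 0.60). *Fbln5*, the gene of the *Loxl1* partner fibulin-5, was at 71.7, 16.9 and 72.8 FPKM in WT and 16.1, 9.18 and 8.51 in LTBP4-CKO (−1.48, SE 0.69). *Efemp2*, the gene of fibulin-4, which tethers lysyl oxidase to elastin, overlapped, at 64.8, 39.2 and 57.1 FPKM in WT and 18.9, 42.3 and 44.4 in LTBP4-CKO (−0.75, SE 0.50). *Efemp1* (−1.70), the microfibril gene *Mfap4* (−1.72) and *Fbln1* (−1.49) were lower in every LTBP4-CKO library. Of the 13 tested, 8 were, *Ltbp4* among them, beside 11.5% of all tested genes. *Ltbp4* is the targeted gene, so nothing is read from it in these counts. Its own estimate is the list median of −0.86, and the median without it was not computed.

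All 13 tested collagen substrate genes had lower estimates and 0 passed. *Col12a1* entered the test only through its WT values, so nothing is read from it in that count. The median was −0.82, or −0.46 without WT libraries 1 and 3 and −1.302 without WT library 2. *Col1a1* was at 175, 102 and 173 FPKM in WT and 57.1, 49.9 and 52.7 in LTBP4-CKO (−1.28, SE 0.44), and *Col1a2* (−1.36), *Col3a1* (−1.29) and *Col5a2* (−1.40) were also lower in every LTBP4-CKO library. Of the 13, 8 were, *Col12a1* among them, beside 11.5% of all tested genes. Of the enzymes and chaperones that modify and export collagen, 12 of 16 had lower estimates and 0 passed, with a median of −0.24, which ran from −0.49 without LTBP4-CKO libraries 2 and 3 to 0.02 without LTBP4-CKO library 1. Of the 16, 3 were lower in every LTBP4-CKO library, beside 11.5% of all tested genes. These were the prolyl hydroxylase genes *P4ha3* (−1.24, SE 0.41), *P3h3* (−0.91) and *P3h1* (−0.66). The collagen galactosyltransferase gene *Colgalt2* had a higher estimate (0.45) and overlapped. Of the copper supply genes, 2 of 7 had lower estimates and 0 passed, with a median of 0.14, or 0.38 without WT libraries 1 and 3 and 0.35 without LTBP4-CKO libraries 2 and 3. *Atp7a*, which encodes the pump that loads copper into lysyl oxidases in the secretory pathway, was at 2.55, 1.03 and 2.35 FPKM in WT and 2.37, 1.24 and 1.34 in LTBP4-CKO (0.07, SE 0.47). Of the 7, 2 were higher in every LTBP4-CKO library, *Commd1* (0.81) and the copper importer gene *Slc31a1* (0.39), beside 10.4% of all tested genes. *Cox17* (0.46) and *Atox1* (−0.25) overlapped. Of 4 other tested genes for cross-linking enzymes and copper amine oxidases, 0 had lower estimates and 0 passed, among them *Tgm2* (0.41), *Pxdn* (0.23), *Aoc2* (0.05) and *Aoc3* (0.00).

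**Figure D4:**
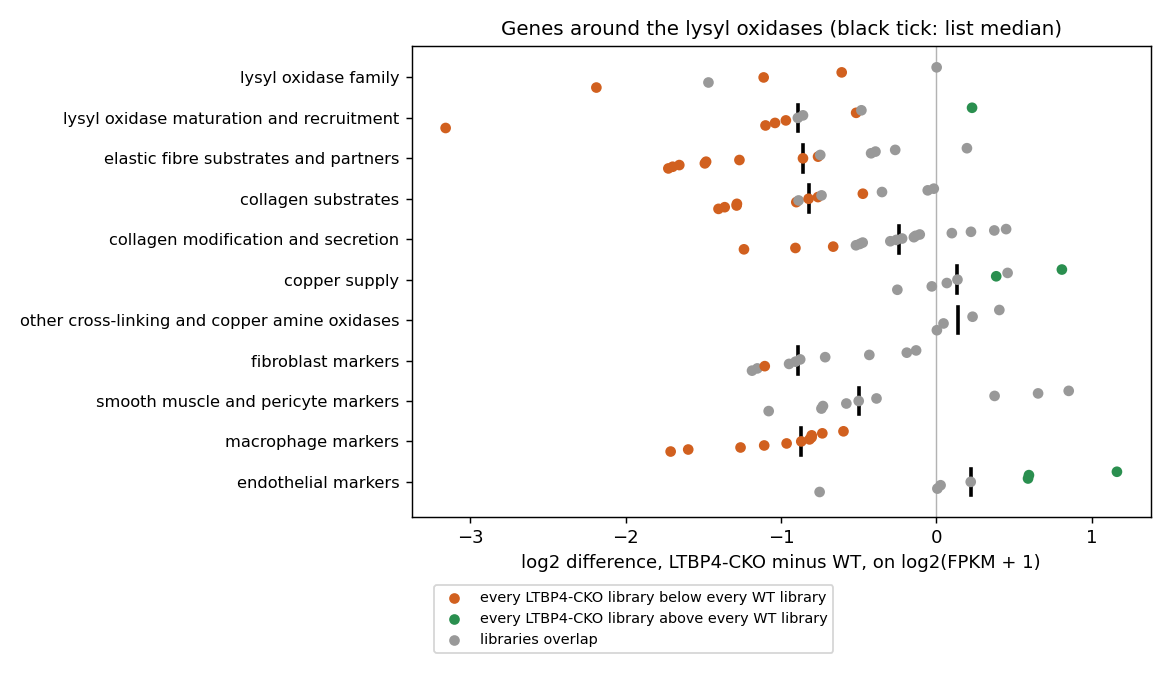
Log2 difference between LTBP4-CKO and WT (horizontal axis, on log2(FPKM + 1)) of each tested gene in lists around the lysyl oxidases and of cell type markers (vertical axis), coloured by whether the 3 LTBP4-CKO libraries lie below (orange) or above (green) all WT libraries or overlap (grey), with black ticks at list medians (none drawn for the family). Collagen, elastic fibre and maturation genes lie mostly left of 0, with medians from −0.89 to −0.82, and copper supply genes lie around 0.14. The elastic fibre median is the estimate of the targeted gene *Ltbp4*.

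Levels of cell type markers also differed in these libraries, and their part in the lysyl oxidase values was not tested. All 10 fibroblast markers had lower estimates (median −0.89), and 1 of them was lower in every LTBP4-CKO library, a share near the 11.5% of all tested genes. That median was −0.27 without WT libraries 1 and 3, −1.36 without WT library 2, −1.54 without LTBP4-CKO library 1 and −0.17 without LTBP4-CKO libraries 2 and 3. The most abundant were *Gsn* (−0.88) and *Dcn* (−0.91), both overlapping between genotypes. All 11 macrophage markers were lower in every LTBP4-CKO library, beside 11.5% of all tested genes. Their median was −0.87, or −0.56 without WT libraries 1 and 3, and the most abundant were *C1qa* (−0.80) and *C1qb* (−0.87). The 5 adipocyte markers were lower in every LTBP4-CKO library too, the most abundant being *Cfd* (−5.66) and *Retn* (−3.92). Of these 5, *Adipoq* and *Plin1* entered the test only through their WT values, as *Loxl4* did, so nothing is read from their separation. The list median (−3.52) is the estimate of *Adipoq*, so nothing is read from that median either. Smooth muscle and pericyte markers had lower estimates in 6 of 9 (median −0.50), with *Tagln* (−1.08) and *Acta2* (−0.38) overlapping. The other 3 had higher estimates and overlapped too, namely *Rgs5* (0.37), *Kcnj8* (0.65) and *Abcc9* (0.85). Endothelial markers had lower estimates in 1 of 7 (median 0.22), with *Egfl7* at −0.75 and *Esam* at 0.03. Of the 7, 3 were higher in every LTBP4-CKO library, beside 10.4% of all tested genes. These were *Pecam1* (0.59), *Cdh5* (0.60) and *Kdr* (1.16). Ventricular cardiomyocyte markers had 0 of 6 lower (median 1.23), with *Myl2* at 2.23 and *Tnnt2* at 0.51, and atrial markers had 6 of 6 lower (median −3.22), with *Nppa* at −1.92 and *Myl4* at −4.10. The atrial median was −0.52 without WT libraries 1 and 3 and −5.91 without WT library 2, and the ventricular one was 0.71 without WT libraries 1 and 3, 0.18 without LTBP4-CKO library 1 and 2.30 without LTBP4-CKO libraries 2 and 3. Mesothelial markers had 4 of 5 lower (median −0.92), or −0.59 without WT libraries 1 and 3, with *Msln* at −1.24 and *Wt1* at 1.19. Cartilage and valve markers had 4 of 4 lower (median −1.36), with *Comp* at −3.63 and *Sox9* at −0.86. Of these, *Chad* entered the test only through its WT values, so nothing is read from it in that count. The median rests in part on *Chad*, so nothing is read from that median either. In all these lists 0 genes passed.

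By Pearson's r of log2(FPKM + 1) over the 6 libraries, given as a description since the libraries make up 4 samples, the genes most like *Loxl1* among 11739 compared were the 3 fibrillar collagen genes *Col1a2* (r = 0.9986), *Col3a1* (0.9983) and *Col1a1* (0.9980). Those most like *Loxl3* were the complement gene *C3* (0.9993), *Comp*, the gene of cartilage oligomeric matrix protein (0.9990), and *Col1a1* (0.9988). *Comp* was at 672, 132 and 673 FPKM in WT libraries 1 to 3 and at 22.4, 23.7 and 24.02 in LTBP4-CKO libraries 1 to 3. *Lox* was closest to *Fbxl15* (0.9988), the lysosomal protease gene *Ctsb* (0.9987) and the collagen gene *Col14a1* (0.9982). *Loxl2* was closest to *Bmpr2*, a BMP receptor gene (0.9986), *Efna5* (0.9984) and *Usp45* (0.9981). *Bmpr2* was at 17.4, 6.72 and 18.3 FPKM in WT and 18.4, 6.16 and 6.35 in LTBP4-CKO, with the same libraries high and low as *Loxl2*. *Loxl4* was closest to *Dact3* and *Ddx26b* (0.9937 each) and *Dpp4* (0.9934). Between members, r was 0.998 for *Loxl1* and *Loxl3* and 0.552 for *Loxl2* and *Loxl3*. With so few samples such values are common: the gene at rank 100 still had r = 0.981 for *Loxl3* and 0.974 for *Loxl4*.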

How the data were processed

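Per the labels' protocols, Trizol was used for extraction and a TruSeq RNA kit for the libraries. The authors deposited FPKM values, 1 column per library, per the file headers. They used Cufflinks and build mm10, per the submitters' processing notes; of its version, the aligner and the annotation nothing is stated there. A count model was therefore not fitted.

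Low values of 690 single-transcript genes whose ends equal GENCODE M21 gave the depth: FPKM times effective length was within 0.15 of a whole number of fragments for 100% of low values in each library. Reads per member are approximate where transcripts are several. The close pairs were averaged as FPKM. The 12485 genes that reached 1 FPKM in 3 or more libraries entered the test, made on log2(FPKM + 1) in limma 3.58.1 (R 4.3.3; trend, robust, either direction, 2 residual degrees of freedom) with Benjamini-Hochberg adjustment over all tested genes and a threshold of 0.05. Exact permutation tests were coded over all arrangements and adjusted with scipy 1.17.1. Coding sequences were aligned with MAFFT 7.526. Of the list genes, 5 were found under an older symbol (*Colgalt1*, *P3h1*, *P3h3*, *P3h4*, *Adgre1*).

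The fit was tested on simulated data of the same size (12485 genes, 2 samples a group). It called 0% of the 50 genes given a log2 change of 1, 2% of the 50 given 2 and 42% of the 100 given 4.

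The members, lists and tests were chosen with earlier results of these data known. Genes named are the members, *Ltbp4*, the 4 genes of smallest p per pathway list and known partners of lysyl oxidases, the 2 most abundant markers per cell type list and the 3 most alike genes per member, leaving out numbered gene models. Other genes were chosen as checks or after their values were seen. These were *Xist*, *Eif2s3y*, *Esr1*, *Htra2*, *Dok1*, *Aup1*, *R3hcc1l*, *Sln*, *Myl7*, *Dkk3*, *Stard10*, *Adipoq*, *Plin1*, *Col12a1*, *Chad*, *Pecam1*, *Cdh5*, *Kdr*, *Rgs5*, *Kcnj8* and *Abcc9*.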

Additional observations from a re-analysis of the deposited data

How the results depend on the processing

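Of 5 members, 0 passed under any of 18 alternatives. *Loxl1*, *Loxl3*, *Loxl4* and *Ltbp4* kept a negative estimate in all 18. *Lox* reversed once, to 0.17 without WT libraries 1 and 3, and its estimates with libraries left out ran from −3.10 to 0.17. *Loxl2*, at 0.00, reversed to −0.035 with quantile normalization and to −0.26 with the 6 libraries as separate samples, with or without a term for the record set or the replicate block, and with libraries left out it ran from −0.41 to 0.42. The corresponding ranges were −1.51 to −0.72 for *Loxl1*, −2.89 to −1.48 for *Loxl3* and −0.82 to −0.40 for *Loxl4*. The count of genes that passed (1) became 9 without a filter on low values, which tests more genes, and 2 with the 6 libraries as separate samples. With libraries left out it ran from 1 to 12, being 12 without WT library 2 and 5 without LTBP4-CKO libraries 2 and 3, and these settings leave a lone sample that is assumed to vary like the others. The cause of the other changes was not tested. List medians kept their sign without each sample in turn (added after the data were seen), except collagen modification (0.02 without LTBP4-CKO library 1), other cross-linking enzymes (−0.12 without WT libraries 1 and 3), smooth muscle (0.27 without WT library 2, 0.09 without LTBP4-CKO library 1) and endothelial markers (−0.03 without LTBP4-CKO libraries 2 and 3). Without WT libraries 1 and 3, the medians were −0.60 for maturation, −0.46 for elastic fibre, −0.46 for collagen substrates and −0.27 for fibroblast markers. Same-numbered libraries did not pair (correlations of deviations 0.116, 0.125 and −0.098), so the replicate block, which kept the count at 1, is only an alternative. Depth limits *Loxl4*, which rested on 9 reads in LTBP4-CKO library 2.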

Other observations

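A gene next to *Loxl3* was also lower in every LTBP4-CKO library than in any WT library, as were 11.5% of all tested genes. *Dok1*, which encodes an adaptor of tyrosine kinase signalling, lies on the opposite strand 701 bases before the GENCODE start of *Loxl3*, with no overlap of exons. It was at 21.9, 17.9 and 26.0 FPKM in WT libraries 1 to 3 and at 7.73, 9.16 and 10.1 in LTBP4-CKO libraries 1 to 3, lower in all of the latter. Its log2 difference was −1.18 (SE 0.36) and missed the threshold (limma, Benjamini-Hochberg adjusted p = 0.999). *Aup1*, the neighbour on the other side, starts 1958 bases after the GENCODE end of *Loxl3* but within its span in the table. Its values overlapped between genotypes, at 84.5, 120 and 88.3 FPKM in WT and 93.2, 84.6 and 87.3 in LTBP4-CKO (−0.19, SE 0.42). These genes were looked at because they neighbour *Loxl3*, after its values were known.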
